A study of Homo sapiens with 4 samples.

Results

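The regions described here lie at the genes of the epidermal growth factor (EGF) receptor system. They are every region of the deposited chromatin accessibility table whose nearest-gene symbol is EGFR, ERBB2, ERBB3, AREG, EREG, HBEGF, TGFA, BTC or ERRFI1, which gave 81 of 58127 regions at 9 genes. Accessibility was measured by ATAC-seq, in which a transposase inserts sequencing adapters into open DNA, in the established line MCF10A, human mammary epithelial cells that do not form tumours. Of 4 libraries, 2 (A and B) came from cells with a hairpin RNA that targets SNHG8d (shG8d), a transcript of the long noncoding RNA gene SNHG8. The other 2, also A and B, came from cells with a control hairpin (shNC). The labels give no culture time, no hairpin sequence and no clone. They do not say whether A and B are separate cultures, so a p-value here reflects only how much the libraries vary, which may be technical.

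EGF receptor, encoded by EGFR, is a receptor tyrosine kinase that pairs with itself or with its relatives ERBB2, which has no known soluble ligand, and ERBB3, which has a weak kinase and binds neuregulins. Amphiregulin (AREG), epiregulin (EREG), heparin-binding EGF-like growth factor (HBEGF), transforming growth factor alpha (TGFA) and betacellulin (BTC) are made as membrane-anchored precursors, and metalloproteases such as ADAM17 release them to bind the receptor. ERRFI1, also called MIG6, is induced by receptor signalling and binds and inhibits the receptor kinase. MCF10A cells are cultured with EGF in the medium and depend on it for growth.

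The row names divide the table into 33913 common regions, 21459 regions specific to shNC and 2755 specific to shG8d. Each library can be followed across these sets by what 1 of its reads is worth in the authors' normalized values, and this shows that the group labels are exchanged between sets. A deeper pair of libraries, with 8124488 (A) and 8111839 (B) reads in regions, is named shG8d in the common set but shNC in the specific sets. A shallower pair, with 4457248 (A) and 4344212 (B) reads, carries the opposite labels. Every difference below is therefore the deeper minus the shallower pair, as log2 of the normalized count plus 1, the region set is named each time, and none is read as an effect of the knockdown. "Called" means an adjusted p under 0.05 in limma fitted to all 58127 regions. The cell type label was checked against markers: KRT5, KRT14, KRT6A, CDH1, ITGB4 and LAMB3 had promoter regions, TP63 had 11 regions but none at a promoter, and the haematopoietic gene PTPRC and the endothelial genes PECAM1 and CDH5 had none at a promoter. PDGFRA, a marker of mesenchymal cells, had 2 promoter regions, and the higher of these had a mean of 37.3 normalized counts. ESR1, of hormone-sensing luminal cells, had 6 regions but none at a promoter, and PGR, SOX10 and MYOD1 had no region. CDKN2A and CDKN2B were included because they are known to be deleted in MCF10A. CDKN2A had no region, but CDKN2B had 5, none at a promoter. Whether these lie inside the deleted stretch was not tested.

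The promoters differ in sequence. The 250 bases before the start are shown for those whose accessibility is described first. These are both EGFR starts, TGFA and ERRFI1, whose promoter regions of highest mean were called, and AREG, which has the most regions. They are from RefSeq (GRCh38.p14), whereas the table's distances are on hg19, and 8 of the 9 genes had an entry. Capitals mark matches to the AP-1 motif TGANTCA, the cAMP response element TGACGTCA, the ETS motif CCGGAAGT, the GC box GGGCGG (all on both strands) and the TATA motif TATAAA (gene strand only), and a CArG box was also searched.
EGFR, upstream start (chr7:55018767-55019016, plus strand): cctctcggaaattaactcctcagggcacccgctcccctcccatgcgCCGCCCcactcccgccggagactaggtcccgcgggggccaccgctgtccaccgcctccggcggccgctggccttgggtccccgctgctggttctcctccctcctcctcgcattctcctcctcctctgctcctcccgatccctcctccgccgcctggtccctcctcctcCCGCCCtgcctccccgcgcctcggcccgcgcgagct
EGFR, downstream start (chr7:55109589-55109838, plus strand): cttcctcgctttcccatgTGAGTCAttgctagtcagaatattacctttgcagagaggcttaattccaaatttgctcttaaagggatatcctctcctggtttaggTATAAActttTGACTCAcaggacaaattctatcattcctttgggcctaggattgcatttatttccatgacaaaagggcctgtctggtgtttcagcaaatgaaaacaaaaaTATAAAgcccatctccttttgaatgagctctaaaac
TGFA, upstream start (chr2:70553827-70554076, minus strand): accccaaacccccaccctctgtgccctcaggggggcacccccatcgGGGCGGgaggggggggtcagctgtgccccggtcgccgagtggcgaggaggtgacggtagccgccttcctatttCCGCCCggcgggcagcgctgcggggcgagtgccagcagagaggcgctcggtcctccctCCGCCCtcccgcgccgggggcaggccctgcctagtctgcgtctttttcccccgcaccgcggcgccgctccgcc
ERRFI1 (chr1:8026310-8026559, minus strand): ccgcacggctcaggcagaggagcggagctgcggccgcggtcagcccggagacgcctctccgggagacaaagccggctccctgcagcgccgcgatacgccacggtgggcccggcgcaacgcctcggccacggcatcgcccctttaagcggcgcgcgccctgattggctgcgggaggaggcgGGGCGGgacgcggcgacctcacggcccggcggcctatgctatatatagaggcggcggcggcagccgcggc
AREG (chr4:74444886-74445135, plus strand): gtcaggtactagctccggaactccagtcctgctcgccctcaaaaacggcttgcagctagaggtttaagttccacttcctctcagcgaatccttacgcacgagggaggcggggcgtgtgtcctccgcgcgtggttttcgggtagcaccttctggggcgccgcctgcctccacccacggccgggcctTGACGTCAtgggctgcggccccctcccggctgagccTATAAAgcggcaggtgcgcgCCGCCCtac

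The EGFR starts, 90822 bases apart, are unlike: the upstream window is 73.6% G or C with 2 GC boxes and no AP-1 or TATA match, and the downstream window is 38.8% G or C with 2 AP-1 matches, TGAGTCA and TGACTCA, and 2 TATAAA matches. TGFA (75.6% G or C) and ERRFI1 (75.2%) hold 3 and 1 GC boxes and none of the other motifs. AREG alone among the members' windows holds the cAMP response element, 65 to 58 bases before the start, and it also holds a TATA match 29 to 24 bases before it. The ERBB2 window holds 2 ETS matches and 1 AP-1 match, the HBEGF window 5 GC boxes of which 2 overlap, the EREG window 1 TATA match, and the BTC window none. Of 35116 RefSeq promoter windows of this length, 6.57% hold the AP-1 motif, 1.65% the cAMP response element, 3.42% the ETS motif, 6.80% the TATA motif, 42.6% a GC box and 1.16% a CArG box. A match describes letters only and was not tested as a binding site.

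Regions were spread unevenly over the genes. AREG had 28 regions, EGFR 16, ERRFI1 13, TGFA 8, BTC 5, HBEGF 4, ERBB2 3, and ERBB3 and EREG 2 each, against a median of 2 over the 19485 genes with any region. Only 8 genes of the table had more regions than AREG, 118 had more than EGFR and 255 had more than ERRFI1. The AREG count joins regions at separately annotated places of the same transcript, described below. Its rank is thus not comparable with that of a gene annotated at a single place. Of the 81 regions, 60.5% were intergenic, against 37.3% of all regions, and 11.1% were annotated as promoter, against 16.5%. The common set held 50 of them, the shNC-specific set 26 and the shG8d-specific set 5. All 81 passed the filter on low values, and the lowest count in any of them in any library was 6 reads, at an AREG region.

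In the common set, the deeper pair was higher at 6 called regions of the 50 and lower at 8, where 10.7% and 15.0% of all common regions were called higher and lower. In the shNC-specific set 5 of 26 were called higher and 0 lower, against 13.2% and 0.979% of that set. In the shG8d-specific set 0 of 5 were called higher and 3 lower, against 0.0363% and 70.0%. The median log2 difference of the members was -0.16 in the common set (-0.12 over all common regions), 0.37 in the shNC-specific set (0.24) and -0.88 in the shG8d-specific set (-1.20). How the specific sets were chosen is not given in the sources used here, so a direction within them may repeat that choice. The members' shares called were near the background in each set. At equal library totals in place of the authors' scaling, which lowers the median over all regions by 0.35, 0 common members were called higher and 19 lower, against 4.01% and 36.6% of common regions.

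**Figure D1:**
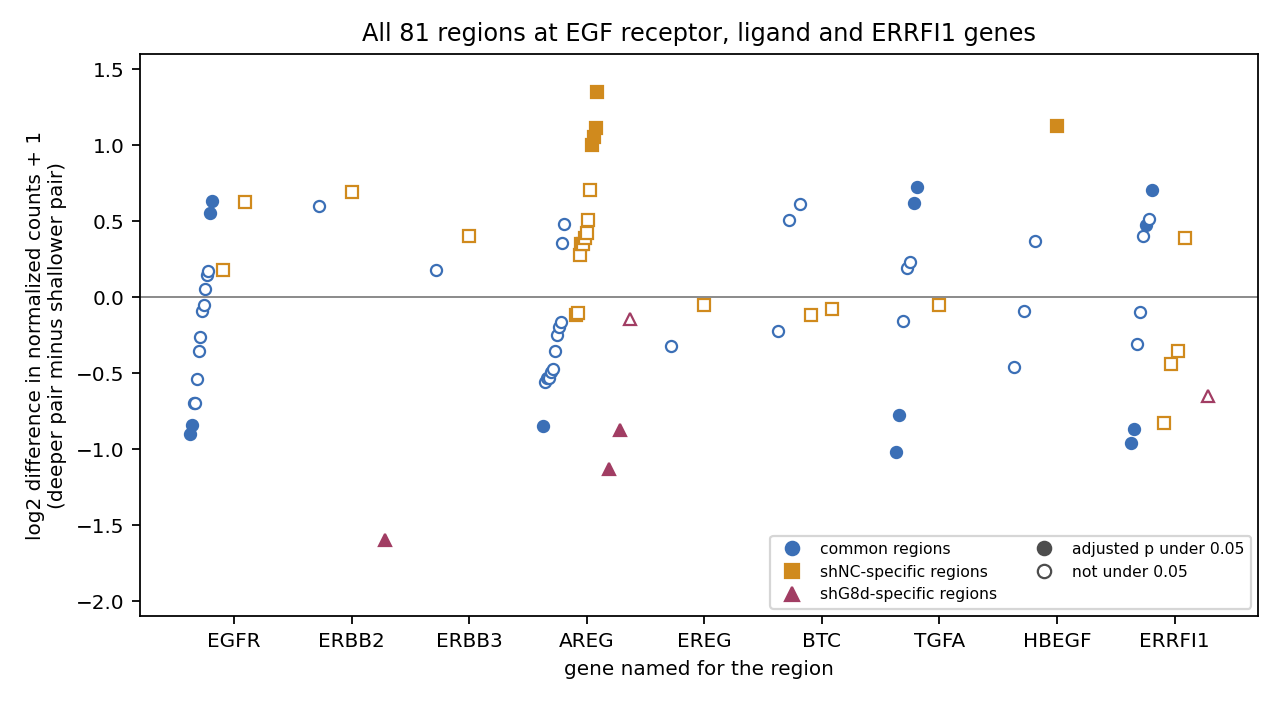
Each point is 1 of the 81 regions, placed by gene, with the log2 difference in normalized counts plus 1 (deeper minus shallower pair) on the vertical axis. Colour and shape give the region set and filled points had an adjusted p under 0.05. EGFR, TGFA and ERRFI1 have filled points on both sides of 0, and the filled AREG points are above 0 in the shNC-specific set and below 0 elsewhere.

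Among the receptors, EGFR had called regions in both directions and ERBB2 had 1 called region, while neither region of ERBB3 was called. At the internal EGFR start (transcript NM_001346900, chromosome 7), the common promoter region at -238 bp held 97.6 and 96.0 normalized counts in deeper A and B and 95.4 and 91.4 in shallower A and B. The 4 libraries were nearly level there (log2 difference 0.05, SE 0.213, adjusted p = 0.887, and -0.30 at equal library totals, adjusted p = 0.316). At the upstream start (NM_001346941), the region at -63 bp belonged to the shNC-specific set, with 49.7 and 67.0 in the deeper and 44.7 and 30.5 in the shallower pair. The pairs did not overlap there, but the difference was not called (0.63, SE 0.306, adjusted p = 0.142).

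The 5 called EGFR regions were all in the common set, in introns or upstream of the gene, and none was annotated as promoter. Of 14 common EGFR regions 2 were called higher and 3 lower, beside 10.7% and 15.0% of all common regions. The region 11168 bp inside the internal start, in intron 1 of NM_001346900, held 38.7 and 42.0 in the deeper and 71.3 and 80.8 in the shallower pair, a difference of -0.90 (SE 0.266, adjusted p = 0.0203). The region 1690 bp from the NM_201282 start, in intron 1 of NM_001346941, held 41.2 and 54.9 against 94.2 and 78.5, a difference of -0.84 (SE 0.259, adjusted p = 0.0248). The intergenic region at -72223 bp held 102.7 and 83.1 against 118.4 and 191.0, a difference of -0.70 (SE 0.231, adjusted p = 0.0350). In all 3 both deeper libraries were below both shallower ones, which their being called makes likely. The pairs did not overlap at 63.4% of all regions. The other called regions were higher in the deeper pair, by 0.55 at -35710 bp (adjusted p = 0.0280) and by 0.63 at 24098 bp (adjusted p = 0.0242), both relative to the internal start.

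The EGFR region of highest mean, 23143 bp inside the internal start, lay next to the called region at 24098 bp and was not itself called. It held 391.3 and 379.3 in the deeper and 345.5 and 349.1 in the shallower pair (difference 0.15, SE 0.157, adjusted p = 0.524). Region widths were not used, so levels are not compared between genes. None of the 5 EGFR calls held when deeper A was left out, with adjusted p-values of 0.0733 (-72223 bp), 0.138 (11168 bp), 0.145 (24098 bp), 0.147 (-35710 bp) and 0.252 (1690 bp). Without deeper B only the call at 1690 bp held (adjusted p = 0.0431), and the others had adjusted p-values from 0.0773 (11168 bp) to 0.282 (-35710 bp). Without shallower A the call at 1690 bp was lost (0.0567), and without shallower B those at 11168 bp (0.0542), 24098 bp (0.0588) and -72223 bp (0.263, with a difference of -0.35). Both higher calls were also lost at equal library totals, with adjusted p-values of 0.431 and 0.295. EGFR-AS1, the antisense gene within EGFR, had a common region at 2718 bp with 275.2 and 284.9 in the deeper and 186.0 and 114.8 in the shallower pair (difference 0.93, SE 0.205, adjusted p = 0.00363). For EGFR-AS1 only the main fit was read, so how this call depends on single libraries is not given.

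**Figure D2:**
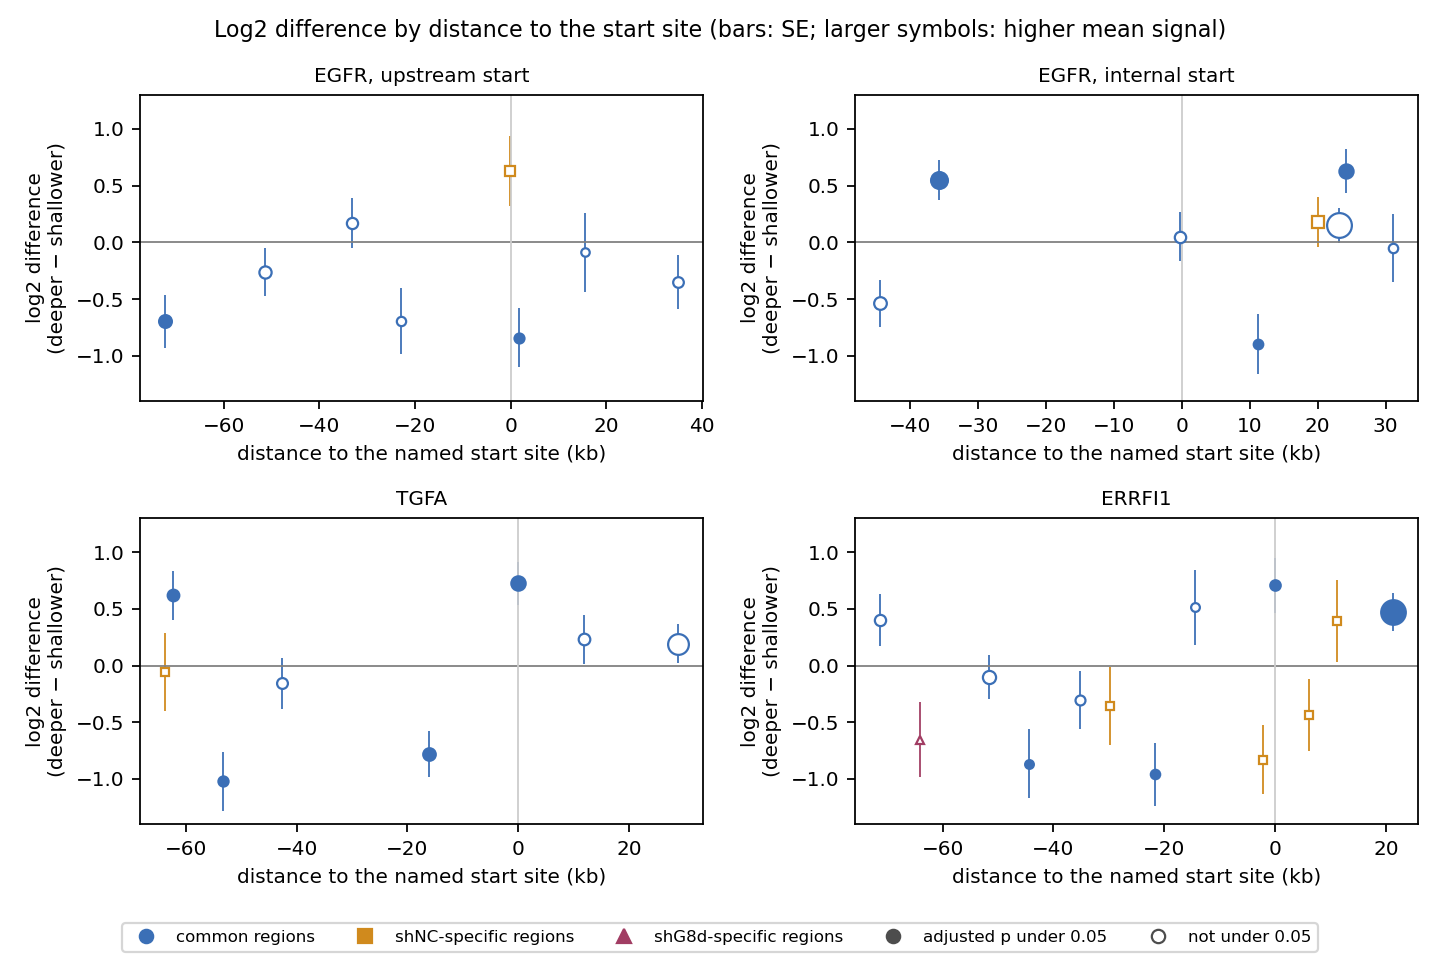
Log2 difference (deeper minus shallower pair, bars 1 SE) against distance in kb to the start site named for each region, for EGFR in separate panels for the upstream starts (NM_001346941 and NM_201282) and the internal start (NM_001346900), and for TGFA and ERRFI1. Symbols grow with mean signal and filled symbols had an adjusted p under 0.05. The largest symbols, 23143 bp from the internal EGFR start, 28828 bp from the TGFA start and 21246 bp from the ERRFI1 start, lie above 0, with differences of 0.15, 0.19 and 0.47.

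ERBB2, the preferred partner of the other receptors, had 3 regions near or inside the gene on chromosome 17, each in a different set. The region 596 bp inside the start, in intron 1 of NM_001289937, was shG8d-specific and held 16.8 and 21.8 in the deeper and 74.9 and 48.0 in the shallower pair. The mean of the deeper pair was 0.314 times that of the shallower pair (log2 difference -1.60, SE 0.345, adjusted p = 0.00326). The promoter region at 59 bp was shNC-specific and leaned the other way, with 48.8 and 62.1 against 48.3 and 23.4 (0.69, SE 0.340, adjusted p = 0.147). That difference rested on the shallower libraries, at 1.20 without shallower A (adjusted p = 0.00382) and 0.19 without shallower B (0.713). The common region at 6015 bp held 98.5 and 74.2 against 49.5 and 63.3 (0.60, adjusted p = 0.0920). At 59 and 6015 bp every deeper library was above every shallower one, beside 63.4% of all regions without overlap, and neither region passed the test. The intron call held in all 13 other settings tried, with adjusted p-values of at most 0.0269, in a set where 70.0% of regions were called lower.

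ERBB3, on chromosome 12, had both of its regions at the promoter. The common region at -1 bp held 121.2 and 125.1 in the deeper and 126.8 and 92.6 in the shallower pair, so the pairs overlapped (0.18, SE 0.212, adjusted p = 0.567). Its sign turned at equal library totals (-0.17) and without shallower B (-0.04). The shNC-specific region at -810 bp held 74.1 and 94.4 against 78.5 and 50.4, again with overlap (0.40, SE 0.262, adjusted p = 0.276). ERBB4, the remaining receptor of the family, had no promoter region, and its 2 common distal regions differed by 0.25 and 0.14 (adjusted p = 0.671 and 0.726).

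Of the ligands, AREG had called regions in all 3 sets, while EREG and BTC had none called. Of 7 common TGFA regions 2 were called higher and 2 lower, beside 10.7% and 15.0% of all common regions. HBEGF had 1 shNC-specific region, which was called higher, beside 13.2% of that set. AREG encodes amphiregulin, a ligand needed for growth of the mammary ducts. All 28 AREG regions were assigned to the transcript NM_001657 on chromosome 4, which the table annotates at more than 1 place, the further one with a numbered suffix. The hg19 build carries a duplicate, AREGB, and the RefSeq table for GRCh38.p14 lists AREGB as a synonym of AREG. How reads that fit both copies were placed is not given in the sources used here, so the division of signal between copies is uncertain, and regions at near-equal distances (-26689 and -26625 bp, -16622 and -16605 bp) may be matching places in each copy.

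Neither region at the AREG starts was called. The shNC-specific region at 0 bp, annotated as promoter, held 41.2 and 42.0 in the deeper and 32.6 and 25.8 in the shallower pair (0.51, SE 0.326, adjusted p = 0.275). The common region at 147 bp, in the 5' UTR of the suffixed copy, held 45.4 and 71.8 against 80.9 and 85.5 (-0.53, SE 0.262, adjusted p = 0.146; -0.21 without deeper A and -0.86 without deeper B), and passed at equal library totals (-0.88, adjusted p = 0.0162). The signs thus differed between the start regions, which lie in different sets. Under the labels as printed, both were lower in shG8d.

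Among the distal AREG regions, the common region at 69458 bp held 59.8 and 67.8 in the deeper and 106.3 and 125.4 in the shallower pair (-0.85, SE 0.226, adjusted p = 0.0114). This was 1 of 12 common AREG regions called, beside 10.7% of all common regions called higher and 15.0% lower. The call was lost without deeper A, where the difference was -0.76. Of 13 shNC-specific AREG regions 4 were called higher, beside 13.2% of that set. At -29269 bp the values were 30.3 and 34.7 against 7.25 and 19.9 (1.35, SE 0.456, adjusted p = 0.0381), counts of only 6 and 17 reads in the shallower libraries. At 10856 bp, at the end of the suffixed copy, they were 48.8 and 36.3 against 21.8 and 16.4 (1.12, SE 0.362, adjusted p = 0.0315). The other called regions, at -59458 and 77462 bp, differed by 0.999 and 1.06 (adjusted p = 0.0132 and 0.0247). Of the 3 shG8d-specific AREG regions 2 were called lower, beside 70.0% of that set. At 12686 bp the values were 21.9 and 23.4 against 33.8 and 76.2 (-1.13, SE 0.374, adjusted p = 0.0340), and at 106358 bp the difference was -0.88 (adjusted p = 0.0445). In all 7 called AREG regions the pairs did not overlap, beside 63.4% of all regions. A call with 2 libraries per pair makes this likely, so it is not separate evidence.

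None of the 7 AREG calls held with every library left out in turn, and the highest adjusted p in those fits ranged from 0.125 (69458 bp) to 0.371 (10856 bp). Without deeper A all calls were lost except that at 77462 bp (adjusted p = 0.0459), and without deeper B all were lost except that at 69458 bp (0.0459). Without shallower A those at 106358 bp (0.0967), 77462 bp (0.192) and -29269 bp (0.197) were lost, and without shallower B those at 10856 bp (0.0620) and 12686 bp (0.347). The differences themselves moved with the shallower libraries: at 77462 bp to 0.41 without A and 1.70 without B, at -29269 bp to 0.68 and 2.02, and at 12686 bp to -1.71 and -0.56. At 106358 bp the difference was -0.57 without deeper B. The 4 calls in the shNC-specific set were lost at equal library totals, with adjusted p-values from 0.0757 to 0.107. As labelled, shG8d was below shNC at 10 of 12 common AREG regions, 11 of 13 shNC-specific and 0 of 3 shG8d-specific ones, beside 58.1%, 66.5% and 0.617% of all regions of each set. The exchange of labels means that this count sets the deeper pair lower in the first set and higher in the second.

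TGFA, a high-affinity ligand of EGFR, had a called promoter region on chromosome 2. At 41 bp from the NM_003236 start, in the common set, it held 196.1 and 191.3 in the deeper and 128.1 and 106.6 in the shallower pair. Both deeper libraries were above both shallower ones, which the call makes likely. The mean of the deeper pair was 1.65 times as high (log2 difference 0.72, SE 0.190, adjusted p = 0.0104). At equal library totals the difference was 0.37 (adjusted p = 0.149), and the call was lost without deeper A (0.123) and without deeper B (0.0894).

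Upstream of TGFA, 2 called regions were lower in the deeper pair and 1, the farthest from the start, was higher. The region at -16012 bp held 80.8 and 94.4 in the deeper and 157.0 and 144.1 in the shallower pair (-0.78, SE 0.204, adjusted p = 0.0105). The region at -53329 bp held 41.2 and 50.8 against 80.9 and 109.0 (-1.02, SE 0.259, adjusted p = 0.00873). The region at -62350 bp was higher in the deeper pair by 0.62 (SE 0.216, adjusted p = 0.0442). The pairs did not overlap in any of these 3, which their being called makes likely. Both lower calls held with each library left out except deeper A (adjusted p = 0.155 and 0.0970), and the call at -62350 bp was lost without deeper A (0.346), deeper B (0.137) or shallower A (0.0660) and at equal library totals (0.381). The TGFA region of highest mean, in intron 1 at 28828 bp, held 287.8 and 319.6 against 298.4 and 235.5, with overlap (0.19, SE 0.173, adjusted p = 0.444). TGFA-IT1, an intronic transcript gene of TGFA, had a common region at -27884 bp that was called lower (-0.78, SE 0.244, adjusted p = 0.0264). For TGFA-IT1 too, only the main fit was read.

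HBEGF, a ligand that also binds heparan sulfate, had 4 regions within 3 kb of its start on chromosome 5. The shNC-specific region at -2848 bp held 112.8 and 104.9 in the deeper and 52.0 and 46.9 in the shallower pair, 2.20 times as high on average (log2 difference 1.12, SE 0.236, adjusted p = 0.00272). This call held in all 13 other settings, with a highest adjusted p of 0.0490 without deeper A. In the shNC-specific set 13.2% of regions were called higher and 0.979% lower. The direction of this call may thus repeat how that set was chosen, and refitting the same 4 libraries cannot tell. The 3 common HBEGF regions, all closer to the start, were not called. The promoter region at -137 bp held 181.8 and 187.2 against 151.0 and 134.7 (0.37, SE 0.183, adjusted p = 0.151, and 0.02 at equal library totals). The region of highest mean, in intron 2 at 1571 bp, held 181.8 and 198.5 against 267.0 and 255.4 (-0.46, SE 0.171, adjusted p = 0.0581). In the latter the deeper libraries were the lower ones, the opposite of the promoter region. At -1709 bp the difference was -0.09 (adjusted p = 0.767).

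EREG and BTC lie in the same ligand cluster on chromosome 4 as AREG. EREG had no promoter region. Its common region in intron 1 at 9584 bp held 95.1 and 114.6 in the deeper and 113.6 and 150.0 in the shallower pair (-0.32, SE 0.213, adjusted p = 0.292), and the shNC-specific region at 10252 bp differed by -0.05 (adjusted p = 0.915). The pairs overlapped at both. The BTC region in the 5' UTR at 207 bp, the region of highest mean, held 62.3 and 83.1 against 91.8 and 77.3 (-0.22, SE 0.241, adjusted p = 0.532). The other 4 BTC regions differed by -0.12 to 0.61, and the lowest adjusted p was 0.0961 at 111743 bp.

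ERRFI1, the feedback inhibitor, had called regions in both directions on chromosome 1. Of its 8 common regions 2 were called higher and 2 lower, beside 10.7% and 15.0% of all common regions. The promoter region at -48 bp, in the common set, held 94.3 and 96.0 in the deeper and 66.4 and 50.4 in the shallower pair, 1.63 times as high on average (log2 difference 0.71, SE 0.242, adjusted p = 0.0396). The region of highest mean, intergenic at 21246 bp from the start, held 418.3 and 422.9 against 347.9 and 263.6 (0.47, SE 0.170, adjusted p = 0.04997, just under the threshold, and 0.0505 with a pseudocount of 0.5). The deeper pair was above the shallower pair in both, which their being called makes likely. The called regions upstream were lower in the deeper pair: at -21735 bp the values were 42.1 and 32.3 against 74.9 and 70.3 (-0.96, SE 0.278, adjusted p = 0.0183), and at -44341 bp they were 30.3 and 28.2 against 56.8 and 51.6 (-0.87, SE 0.305, adjusted p = 0.0460). The shNC-specific region at -2127 bp leaned the same way without passing (-0.83, SE 0.306, adjusted p = 0.0554).

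The promoter call of ERRFI1 was lost without deeper A (adjusted p = 0.201), deeper B (0.201) or shallower B (0.118), and at equal library totals, where the difference was 0.36 (0.276). The call at 21246 bp was lost without the same libraries (0.270, 0.269 and 0.180, the last with a difference of 0.27) and at equal totals (0.12, adjusted p = 0.627). The call at -21735 bp was lost only without deeper B (0.163), of the 13 other settings, and that at -44341 bp without any 1 of the 4 libraries, with adjusted p-values from 0.0502 to 0.197.

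**Figure D3:**
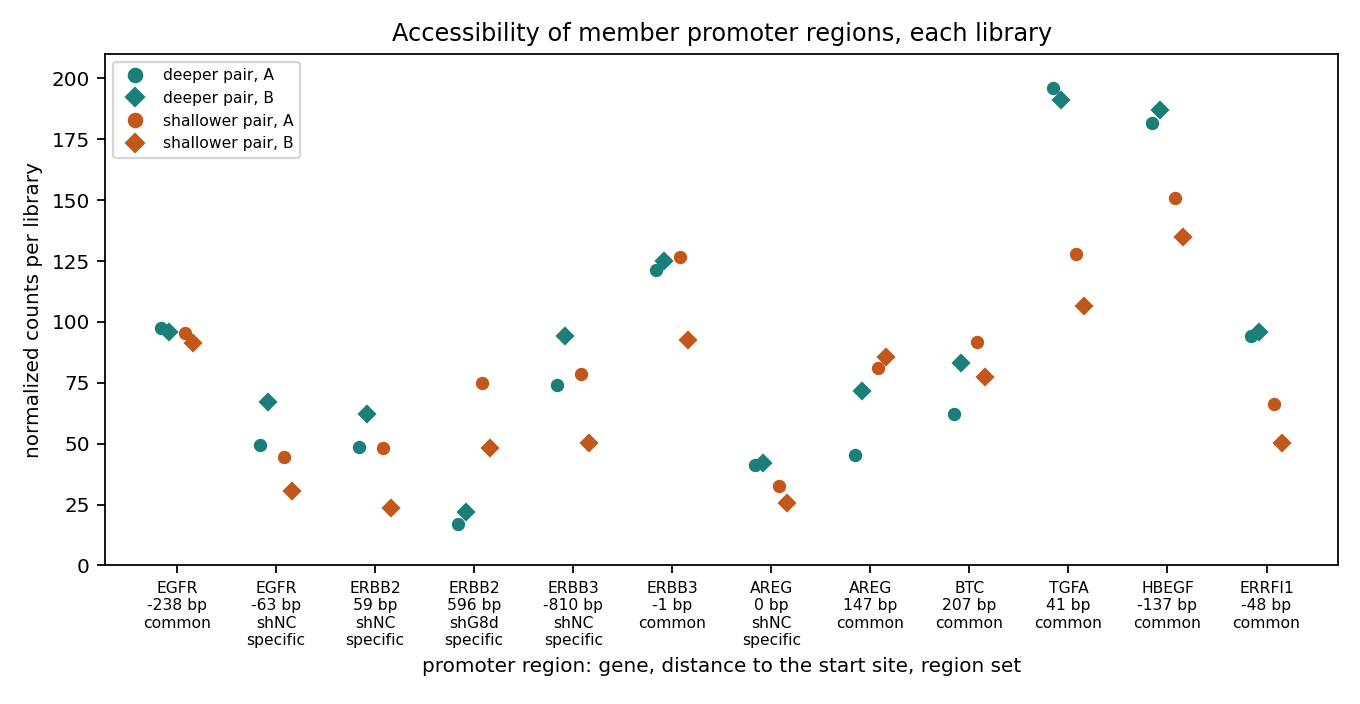
Normalized counts in each of the 4 libraries at the 12 member regions that carry a promoter annotation or lie at most 1 kb from a start. Shape gives the letter A or B and colour the deeper or shallower pair, and the labels give gene, distance and region set. TGFA (191.3 to 196.1 against 106.6 to 128.1) and ERRFI1 (94.3 to 96.0 against 50.4 to 66.4) separate with the deeper pair above, and ERBB2 at 596 bp separates with the deeper pair below.

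With 1 promoter region per gene, the one of highest mean within 1 kb of a start, 8 of the 9 genes had a region. TGFA and ERRFI1 were called higher and none lower, beside 20.3% and 10.7% of all 11487 such promoters called higher and lower. The ERBB2 region at 596 bp, called lower, is also within 1 kb of a start. It is not counted here because its mean (40.4) is below that of the region at 59 bp (45.7). The median difference was 0.28 for the 8 and 0.14 for all promoters. Over all 81 regions, the pairs did not overlap at 55, beside 63.4% of all regions.

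Promoters of 72 other genes of the pathway, from lists drawn up by function, were read the same way, and 62 had a region. Calls were higher in the deeper pair at 14 of these and lower at 5, with a median of 0.27, beside the same 20.3% and 10.7% of all promoters. Among adaptors and the RAS, MAP kinase and PI3 kinase relay, 7 of 22 were called higher and 1 lower. STAT3, a transcription factor activated by the receptor, held 132.1 and 182.4 in the deeper and 73.7 and 72.6 in the shallower pair (1.08, SE 0.217, adjusted p = 0.00213). SOS2, a RAS activator, differed by 1.33 in the shNC-specific set (adjusted p = 0.00720), and HRAS by 1.03 (adjusted p = 0.00586). NRAS was the promoter called lower (-0.75, adjusted p = 0.0193). RAS genes thus had calls on both sides of 0. Each of these calls was lost in 1 or more fits without a single library: STAT3 without deeper B (0.0783), SOS2 without deeper A (0.0652, and its difference was 0.70 without shallower B), HRAS without deeper A (0.0682) or deeper B (0.0554), and NRAS without deeper A (0.320, with a difference of -0.50).

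Of the other inhibitors of the receptor and of ERK, 3 of 18 were called higher and 0 lower, beside 20.3% and 10.7% of all promoters. CBLC, a ubiquitin ligase of the family that directs EGF receptor to degradation, held 115.3 and 110.6 against 39.9 and 38.7 in the shNC-specific set (1.50, SE 0.244, adjusted p = 0.000400). DUSP4, an ERK phosphatase, and LRIG1, which promotes receptor breakdown, differed by 0.72 and 0.63 in the common set (adjusted p = 0.0326 and 0.0179). Among ERK target genes 3 of 14 were called higher and 2 lower, beside the same shares of all promoters. ETV5 held 276.0 and 276.0 against 112.4 and 137.1 (1.15, SE 0.181, adjusted p = 0.000332), and EGR1, an immediate early gene, held 303.0 and 302.6 against 160.7 and 123.0 in the shNC-specific set (1.10, SE 0.182, adjusted p = 0.000472). ELK1 was also higher (0.60, adjusted p = 0.0261). ETV4, a close relative of ETV5, was lower, with 91.7 and 83.9 against 141.3 and 142.9 (-0.69, SE 0.202, adjusted p = 0.0193), and VGF was lower (-0.79, adjusted p = 0.0463). The calls at DUSP4, LRIG1, ELK1, ETV4 and VGF were lost without deeper A (adjusted p from 0.0928 to 0.221) and without deeper B (0.101 to 0.323), those at DUSP4 and VGF also without shallower B (0.0934 and 0.272, where VGF differed by -0.50), and those at DUSP4, LRIG1 and ELK1 at equal library totals (0.250 to 0.361).

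Of the proteins that release or traffic the ligands, 1 of 5 was called higher and 1 lower, beside 20.3% and 10.7% of all promoters. ADAM17, the main sheddase of these ligands, held 149.0 and 150.9 in the deeper and 94.2 and 82.0 in the shallower pair (0.76, SE 0.202, adjusted p = 0.0112). Without deeper A (0.109) or deeper B (0.105) it was no longer called, nor at equal library totals (0.135). ADAM12 was shG8d-specific and lower (-1.79, SE 0.364, adjusted p = 0.00226). Of 7 other ligands and receptors of the family only 3 had a promoter region, and EGF itself had none. NRG2, a neuregulin, was shG8d-specific and lower (-1.12, SE 0.298, adjusted p = 0.0118), a call lost without deeper A (0.129). Of the 19 pathway calls, those at CBLC, EGR1, ETV5 and ADAM12 held in all 13 other settings. CBLC, EGR1 and ADAM12 lie in specific sets, where a direction may repeat how the set was chosen. At equal library totals 6 pathway promoters were called higher and 11 lower, beside 8.58% and 25.7% of all promoters. Without shallower A the counts were 22 and 7, beside 30.5% and 13.3%. By set, the 46 common promoters had a median of 0.26 (0.04 over all 8361 common promoters) with 11 called higher and 3 lower, beside 17.95% and 12.2% of common promoters. The 14 shNC-specific ones had a median of 0.41 (0.50 over 2855) with 3 called higher and 0 lower, beside 28.9% and 0.981%, and both shG8d-specific ones were called lower, beside 67.2% of 271.

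**Figure D4:**
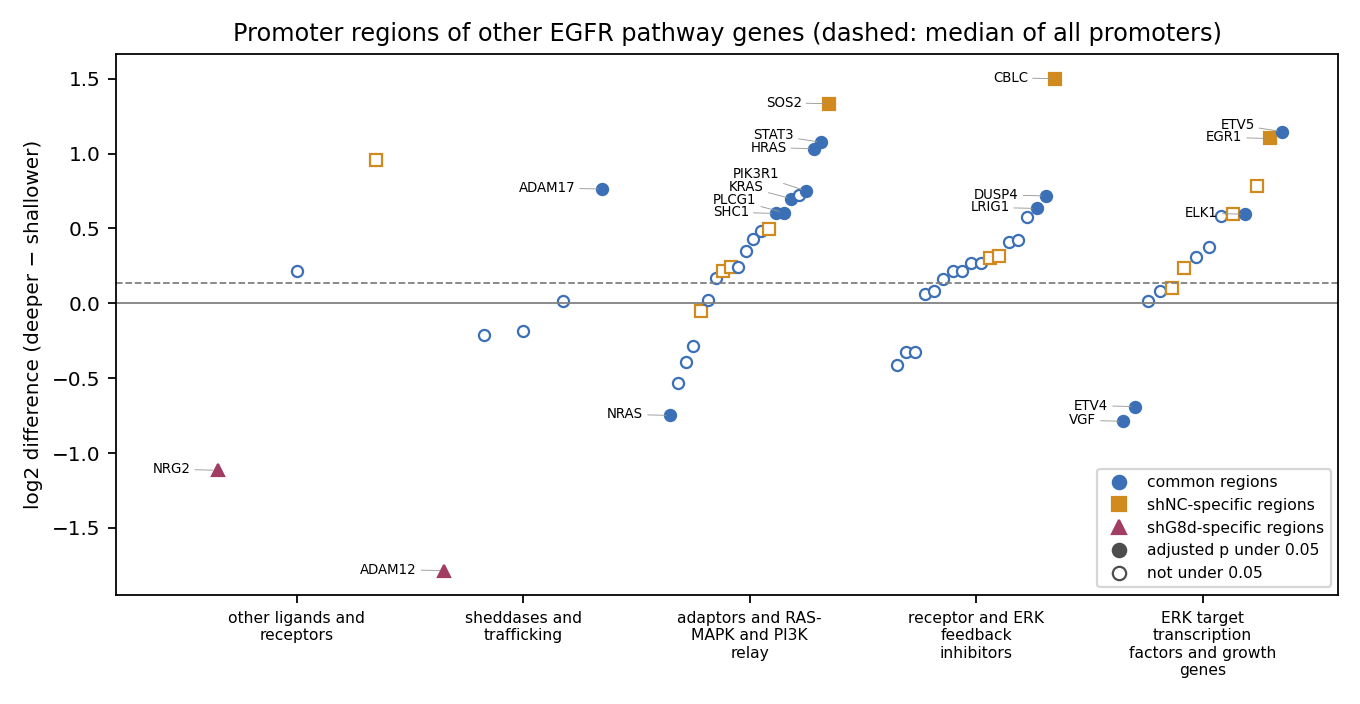
Each point is the promoter region of 1 of 62 other pathway genes, by list, with the log2 difference (deeper minus shallower pair) on the vertical axis. Colour and shape give the region set, filled and named points had an adjusted p under 0.05, and the dashed line is the median of all promoters (0.14). CBLC (1.50) is the highest point and ADAM12 (-1.79) the lowest, and both are in specific sets.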

How the data were processed

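Per the file headers, the authors' deposited table gives each region a log10 normalized value per sample, a log2 fold change, an unadjusted p-value, an annotation and a distance to a start site. Per the submitters' processing notes the build was hg19 and base calling used CASAVA 1.4. Aligner, peak caller, counter and test were not given in the sources used here. Back-transformed from log10, the deposited values were whole multiples of what 1 read is worth in each library (100% within 0.05 reads): 0.842 and 0.807 normalized counts per read for deeper A and B, 1.21 and 1.17 for shallower A and B. These values recur in all region sets under exchanged labels. A count of 0 allows up to 3 reads, or 2.42 to 3.62 normalized counts, for counting error only. The deposited log2 fold change (within 0.00920 of the log2 ratio of group means) and the deposited p-value were not used for calls.

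In R 4.3.3, limma 3.58.1 with its mean-variance trend was fitted to log2(normalized count + 1), which understates changes of low regions, with Benjamini-Hochberg adjustment over all regions. A filter of 10 normalized counts in at least 2 libraries removed 0 regions. The script was tested on simulated data. Values in every library are given for each gene's promoter region, its region of highest mean and up to 3 called regions of largest difference in common and in specific regions, and up to 3 promoters per direction are named in each pathway list. Members, lists and rules were chosen with earlier results of these data known. Alternatives were other pseudocounts, filters and scaling, no trend, separate fits per set, a replicate block, voom weights on the recovered reads, and each library left out. Region coordinates were not used, and figures were drawn with matplotlib 3.10.9.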

Additional observations from a re-analysis of the deposited data

How the results depend on the processing

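Counts of called regions are given as higher and lower in the deeper pair: 6 and 8 of the common members, 5 and 3 of the specific members and 14 and 5 of the pathway promoters. Equal library totals gave 0 and 19, 1 and 5, and 6 and 11. Then 4.01% and 36.6% of common regions, 5.04% and 16.2% of specific regions and 8.58% and 25.7% of promoters were called. Without the mean-variance trend the counts were 0 and 5 (5 in all), 3 and 1 (4), and 5 and 2 (7). Of all common regions 4.65% and 8.07% were then called higher and lower, of specific regions 8.64% and 8.28%, and of promoters 10.3% and 5.23%. With each region set fitted alone, 1 and 3 specific members (4) were called, beside 4.97% and 9.35% of all specific regions. Deviations of same-letter libraries were nearly uncorrelated over regions (-0.0039). At this read depth that cannot tell whether a letter marks a shared culture or batch. A replicate block gave 14 common members, 9 specific members and 22 pathway promoters. The block called 11.7% and 16.6% of common regions higher and lower, 13.95% and 9.62% of specific regions and 22.3% and 11.7% of promoters. Leaving out each library in turn gave common members from 1 to 18 in all (higher 0 to 8, lower 1 to 10), specific members from 2 to 10 (higher 1 to 7, lower 1 to 3) and pathway promoters from 5 to 29 (higher 4 to 22, lower 1 to 7). The lowest counts of common members and pathway promoters came without deeper A and the highest without shallower A, and the background moved alike: 3.84% of all common regions were called higher and 4.82% lower without deeper A, and 15.3% and 19.8% without shallower A. In specific regions these shares were 3.07% and 3.93%, and 18.9% and 11.0%. Without the AREG regions, an alternative added after seeing the data, 2 specific members were called, 1 higher and 1 lower. Of the 22 member calls, 10 were lost at equal totals, 13 without the trend, 4 in separate fits, 1 at a pseudocount of 0.5 and 0 with the block, with voom, at a pseudocount of 5 or at other filters. Without deeper A 18 were lost, without deeper B 16, without shallower A 6 and without shallower B 8. The calls at ERBB2 (596 bp) and HBEGF (-2848 bp) held in all 13 settings, which refit the same 4 libraries. Both lie in specific sets, where a direction may repeat how the set was chosen. No call changed sign in any setting. The cause of these changes was not tested, although leaving out a library also leaves that pair with 1 library, which is then assumed to vary like the other pair. The median of 48 to 68 reads per region limits the precision of each difference.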
